A study of Mus musculus with 16 samples.

Results

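The inguinal fat pad of the mouse, a white subcutaneous depot, lies against the muscles of the hind limb and body wall, and its messenger RNA was measured here in 16 libraries from C57BL6/J mice. All 16 libraries were ranked by their value of Acta1, the actin of skeletal muscle thin filaments, and the 8 highest were compared with the 8 lowest. The classes were chosen by a measured value, Acta1 itself, and what follows between them is a description of how genes follow it. A gene said to pass between the classes, or per doubling of Acta1, lies past a limma threshold that sets its difference against the spread between libraries, and no p-value is given for it. Mice ate either control or high-fat food, and on each diet 4 libraries came from untreated mice and 4 from mice given an antibody against PDGFcc, a ligand of the platelet-derived growth factor family. Per the labels the antibody (AF1447) was injected into the peritoneum, 50 mg/kg in a volume of 100 µl, at intervals of 2 days over 2 weeks in mice of 6 weeks. The sources used here do not say what the untreated mice were injected with, how long the diets lasted or whether each library is a separate animal. The p-values below therefore measure only the spread between these samples, and that spread may be technical.

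Skeletal muscle fibres are long cells packed with sarcomeres, in which myosin thick filaments pull on thin filaments of actin, troponin and tropomyosin, and titin spans the repeat from Z-disc to M-band. Calcium released through the ryanodine receptor starts contraction, and the pump encoded by Atp2a1 ends it. Fibres differ in their myosin heavy chain: Myh4 marks fast glycolytic fibres, Myh1 and Myh2 fast fibres with more oxidative metabolism, and Myh7 slow fibres. Fat cells make none of the sarcomere's specialised proteins in quantity, although they share tropomyosins, glycolytic enzymes and mitochondrial genes with muscle.

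Acta1 and the creatine kinase gene Ckm stand for the skeletal muscle program in the text below, Myh4 for its fast fibres, and Acta2 is the actin of smooth muscle, which did not follow the split. Their promoters are shown because the first 3 genes moved together, from 250 bases before the annotated start to 50 after it (RefSeq, GRCm38.p6). Capitals mark CArG boxes of the exact letters CCWWWWWWGG, with W for A or T, the site of serum response factor. They also mark E-boxes of the letters CANNTG, the site of the MyoD family.

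Acta1: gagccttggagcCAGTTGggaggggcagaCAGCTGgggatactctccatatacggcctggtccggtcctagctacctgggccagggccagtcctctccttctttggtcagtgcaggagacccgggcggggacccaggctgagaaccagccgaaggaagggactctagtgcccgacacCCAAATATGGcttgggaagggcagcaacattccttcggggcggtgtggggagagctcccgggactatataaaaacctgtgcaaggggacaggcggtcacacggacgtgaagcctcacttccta
Ckm: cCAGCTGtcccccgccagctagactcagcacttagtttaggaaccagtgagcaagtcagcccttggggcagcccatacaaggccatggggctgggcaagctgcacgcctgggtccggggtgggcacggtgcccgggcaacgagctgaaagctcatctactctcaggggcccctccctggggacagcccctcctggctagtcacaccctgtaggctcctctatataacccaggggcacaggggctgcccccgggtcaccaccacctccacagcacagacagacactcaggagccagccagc
Myh4: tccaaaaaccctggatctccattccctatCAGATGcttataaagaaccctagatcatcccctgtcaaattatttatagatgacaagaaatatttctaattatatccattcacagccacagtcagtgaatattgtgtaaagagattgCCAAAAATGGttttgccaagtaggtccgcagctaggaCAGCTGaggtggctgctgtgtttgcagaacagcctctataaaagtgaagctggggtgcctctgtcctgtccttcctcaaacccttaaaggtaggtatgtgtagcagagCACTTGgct
Acta2: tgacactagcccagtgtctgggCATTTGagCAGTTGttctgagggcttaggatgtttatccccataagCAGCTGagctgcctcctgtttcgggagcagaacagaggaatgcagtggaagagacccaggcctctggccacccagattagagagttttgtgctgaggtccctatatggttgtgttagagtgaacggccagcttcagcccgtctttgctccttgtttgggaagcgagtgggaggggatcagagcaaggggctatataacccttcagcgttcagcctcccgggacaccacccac

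These windows lie at chr8:123894726-123895025 on the minus strand for Acta1, chr7:19410844-19411143 on the plus strand for Ckm, chr11:67237562-67237861 on the plus strand for Myh4 and chr19:34255324-34255623 on the minus strand for Acta2. Acta1 held 1 exact CArG box and 2 E-boxes, Ckm 1 E-box, Myh4 1 exact CArG box and 3 E-boxes, and Acta2 3 E-boxes. Stretches 1 letter off the CArG pattern were not counted. Among them are ccctatatgg and ccttgtttgg in Acta2 and ccatatacgg in Acta1, so Acta2 is not shown to lack such sites. Both strands were searched, and 94 promoters of 73 tested skeletal muscle list genes were matched. A CArG box was found in 8.51% of those 94 and in 1.63% of all 32851 promoters of this length. The binding site of MEF2 was found in 13.8% against 3.19%, the MCAT element (CATTCC) in 20.2% against 14.7%, and the E-box in 83.0% against 72.3%. These are matches of letters, and no binding was measured.

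Values are normalized counts, the linear unit of the deposited table. Acta1 was 92644 in untreated high-fat replicate 2, the highest library. It was 31737, 29059, 26640 and 5982 in antibody control-diet replicates 1, 2, 4 and 3, 6440 and 4521 in untreated control-diet replicates 2 and 1, and 5581 in untreated high-fat replicate 4. Among the 8 low libraries it was 3835 and 1212 in untreated high-fat replicates 3 and 1, 1477 and 179 in untreated control-diet replicates 3 and 4, and 1756, 752, 303 and 103 in antibody high-fat replicates 2, 3, 4 and 1. The split thus fell between 4521 and 3835, neighbours that lie close together. The 4 highest libraries stood at 26640 or more and the other 12 at 6440 or less. Ranking by Atp2a1 or by Ttn, the gene of titin, put all 16 libraries in the same classes.

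**Figure D1:**
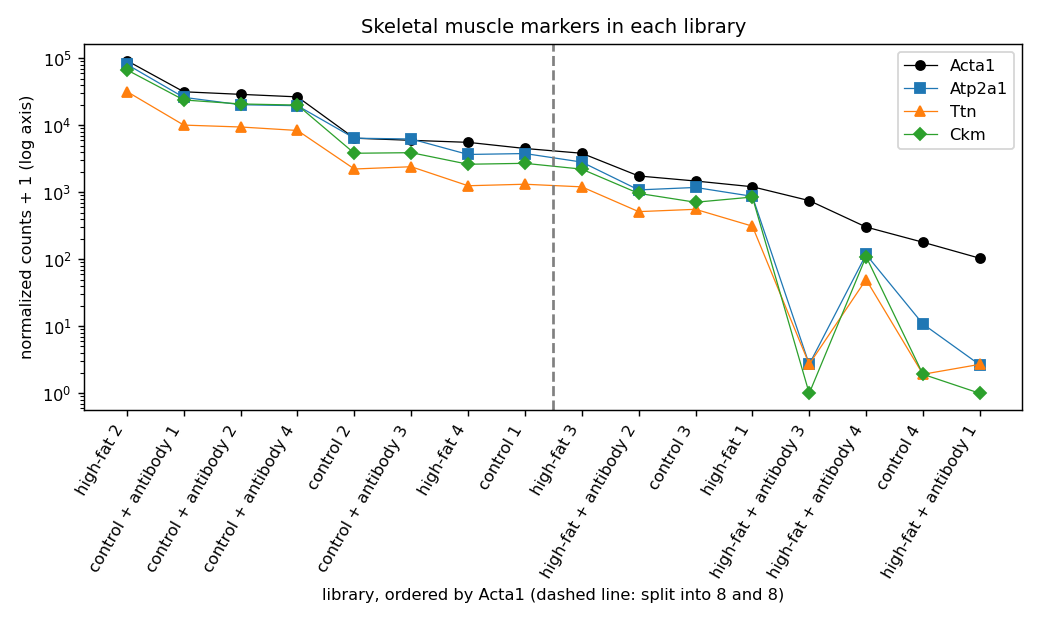
Normalized counts plus 1 (log axis) of Acta1, Atp2a1, Ttn and Ckm in each of the 16 libraries, ordered by Acta1 from left to right, with the split into 8 and 8 as a dashed line. The 4 genes run together over the 12 libraries with the most Acta1, and Ckm is under 1 normalized count in 3 libraries in which Acta1 is 103 to 752.

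The classes were not spread evenly over the study's groups. All 4 antibody libraries on control diet were in the high class and all 4 on high-fat diet in the low class, while each untreated group had 2 libraries in each. Muscle level and the combination of diet and antibody therefore cannot be told apart among the antibody libraries. The design's own contrasts, which the ranking did not use, did not pass the threshold of an adjusted p of 0.05 for Acta1. With limma on log2(value + 1), Acta1 differed by -1.68 ± 1.29 (SE) for high-fat minus control diet (adjusted p = 0.358) and by -0.20 ± 1.29 for antibody minus untreated (adjusted p = 0.966). Within diets, the antibody difference of Acta1 was 3.55 ± 1.29 on control diet (adjusted p = 0.305) and -3.95 ± 1.29 on high-fat diet (adjusted p = 0.187). The difference between those 2 differences was -7.51 ± 1.83 (limma, adjusted p = 0.264, unadjusted p = 0.000938). This interaction fit called 0 of 14189 genes (0%), with 877 at an unadjusted p under 0.05, and was chosen after seeing the data.

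Atp2a1, the fast-fibre calcium pump, lay between 3679 and 81383 with a median of 13055 in the high class, and between 1.66 and 2832 with a median of 494 in the low class. Ttn lay between 1255 and 32009 (median 5403) in the high class and between 0.925 and 1208 (median 181) in the low class. In both genes the classes did not overlap, and untreated high-fat replicate 2 was the highest library. The high-minus-low difference with diet as covariate was 4.76 ± 0.89 for Acta1, 6.91 ± 1.69 for Atp2a1 and 6.82 ± 1.61 for Ttn, on the log2(value + 1) scale, which understates the change of low values. In bulk tissue, fewer cells of a type and less RNA per cell cannot be told apart.

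The libraries were not alike in how far muscle transcripts fell away. Ckm, the cytosolic creatine kinase of muscle, was 0 in antibody high-fat replicates 1 and 3 and 0.924 in untreated control-diet replicate 4, and at least 109 in each of the other 13 libraries. These 3 libraries are called Ckm-free below. Acta1 itself stayed at 103, 752 and 179 in them, and antibody high-fat replicate 3, with 752, had only 1.71 of Atp2a1 and 1.72 of Ttn. Antibody high-fat replicate 4 had less Acta1, 303, yet 109 of Ckm and 334 of Myh4. Near the bottom of the ranking, Acta1 and the sarcomere genes thus did not give the same order.

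A sum over 54 muscle list genes, chosen for values under 24.5 in every Ckm-free library, gives a part of the muscle signal. It leaves out muscle genes with more there, such as Acta1, Ryr1, Casq1 and Pygm. The sum is low in the Ckm-free libraries by that choice. It took 2.47% of all normalized counts in untreated high-fat replicate 2. In antibody control-diet replicates 1, 2 and 4 it took 0.754%, 0.647% and 0.596%, and in the other 4 high libraries 0.105% to 0.157%. In the low class it ran from 0.0841% in untreated high-fat replicate 3 down to 0.0007% in the Ckm-free libraries untreated control-diet replicate 4 and antibody high-fat replicate 1. Each library summed to 24.02 to 28.15 times 1e6 normalized counts. Adipoq, the fat cell hormone adiponectin, lay between 78008 and 97146 in all 16 libraries, and its high-minus-low difference was -0.01 ± 0.09.

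Of the 14189 genes tested, 230 (1.62%) were higher and 108 (0.761%) lower in the high class past the adjusted threshold of limma with diet as covariate, together 2.38%. Values of the classes did not overlap for 73 higher genes (0.514%) and for 1 lower gene (0.00705%), the antisense RNA Gm16263. The counts rest on single libraries: without untreated control-diet replicate 4 no gene passed (0 higher, 0 lower, 2888 at an unadjusted p under 0.05), without untreated high-fat replicate 2 only 1 of the 230 did, and without untreated high-fat replicate 3 there were 449 higher. With the 4 groups in place of diet as covariates 0 were higher and 1 lower (limma, 2996 genes at an unadjusted p under 0.05), and in the untreated libraries alone 0 and 0 (2026 at an unadjusted p under 0.05). Without a pair of libraries, replicate 2 of the untreated high-fat and replicate 3 of the untreated control-diet mice, which an earlier look at these data doubted, the split called 0 genes (1344 at an unadjusted p under 0.05), and per doubling of Acta1 166 were higher and 0 lower. The 230 higher and 108 lower genes each kept their sign when any 1 library was left out. They were picked by their differences over these same libraries, so the kept sign is no separate support. With log2 Acta1 as a number in place of the classes, 262 genes (1.85%) were higher and 7 (0.0493%) lower per doubling of Acta1, and within the 4 groups 165 (1.16%) and 6 (0.0423%). With diet as covariate, the count of 262 lay between 173 (without untreated high-fat replicate 2) and 275 when each library was left out in turn. The counts of higher genes, by class and per doubling, include Acta1 itself.

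Of the 230 higher genes, 174 were also called per doubling of Acta1 and 141 within the 4 groups. Of the 108 lower genes, only 3 and 1 were. The 3 were Gm6166, Myl6b, an alkali light chain of myosin, and Wbp1, and the 1 was 1110008P14Rik, all named after their values were seen.

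Skeletal muscle lists held 129 genes, of which 109 had a row and 101 passed the filter on low values. Of these 101, 64 were higher and 0 lower, against 1.62% and 0.761% of all genes tested. The median difference was 3.03 against -0.0025 over all genes tested, and 82 were higher per doubling of Acta1. Acta1 itself is among them by construction, and without it 63 of 100 were higher (median 3.02). Because 54 of the 101 were under the filter value in the Ckm-free libraries, they had to pass it through the libraries rich in muscle, and the count describes these libraries only. The same background holds for each muscle list below. The same limit holds for such members there, among them 5 of 11 thin filament and 15 of 19 Z-disc genes. No member was called by antibody with diet as covariate, against 2.44% of all genes, and 6 were called by diet, against 19.8%.

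**Figure D2:**
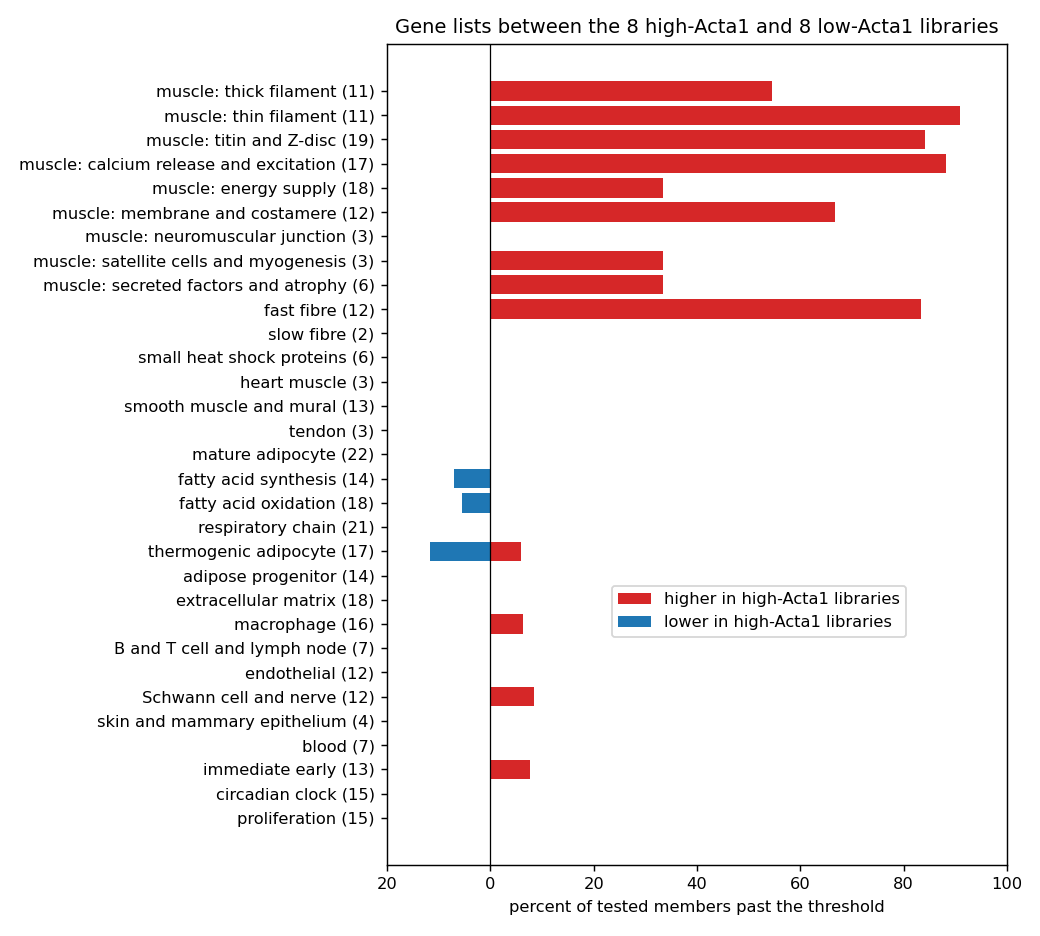
Percent of the tested members of each gene list (number tested in brackets) that were higher (bars to the right) or lower (bars to the left) in the 8 high-Acta1 libraries past the adjusted threshold, with diet as covariate. Thin filament (10 of 11), calcium handling (15 of 17) and Z-disc (16 of 19) genes make the longest bars, and lists of fat and other cell types have at most 3 members past the threshold. Over all genes tested 1.62% were higher and 0.761% lower.

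Thin filament genes were higher in 10 of 11 cases (median 4.37). Acta1, which made the classes, is 1 of them, and without it 9 of 10 were higher (median 4.07). The fast troponins Tnnt3, Tnni2 and Tnnc2, which place calcium control on the filament, differed by 6.12 ± 1.29, 5.74 ± 1.22 and 5.39 ± 1.09. Tnnt3 lay between 1975 and 48148 in the high class and between 9.83 and 1796 in the low class. Neb, the giant ruler protein nebulin, lay between 578 and 16157 against 26.8 and 631, so that its classes overlapped at the edge. Tropomyosin genes, which fat also expresses, moved less: Tpm1 by 2.37 ± 0.55 and Tpm2 by 2.97 ± 0.49, and Tpm1 was still at 1256 to 1450 in the Ckm-free libraries. Slow troponins Tnnt1 and Tnnc1 were below the filter, between 3.88 and 20.1 and between 7.48 and 22.0 in all libraries.

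Thick filament genes divided. In all, 6 of 11 were higher, among them Mylpf, the fast regulatory light chain (5.18 ± 1.14), Mybpc2, the fast myosin-binding protein C (6.71 ± 1.59), and Mylk2, the kinase of the light chain (5.72 ± 1.29). Myl1, the fast alkali light chain, differed by only 2.19 ± 0.51, and it was at 1025 to 1189 in the Ckm-free libraries. Myh4 lay between 6269 and 213674 in the high class and between 0 and 5598 in the low class. Its difference of 8.24 ± 2.18 and that of Ckm, 7.65 ± 1.95, did not pass the threshold, with a spread of Myh4 inside the low class from 0 to 5598. Both passed per doubling of Acta1 with diet as covariate, at 1.78 ± 0.23 and 1.65 ± 0.20 log2 units. Within the 4 groups both passed as well, at 1.66 and 1.51. In the 8 high libraries Ckm was 47.1% to 75.5% of the Acta1 value, and in the Ckm-free libraries 0% to 0.516%.

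The heavy chains of more oxidative fibres did not pass, by class or per doubling. Myh1 lay between 44.6 and 1981 in the high class and between 13.8 and 456 in the low class, a difference of 1.90 ± 0.98 that did not pass. Myh2 lay between 7.31 and 722 against 8.18 and 131, with a difference of 0.24 ± 0.97. The highest Myh2 values, 722 and 679, came from untreated control-diet replicate 2 and antibody control-diet replicate 3, which rank 5 and 6 by Acta1. In untreated high-fat replicate 2, the library with the most Acta1, Myh2 was 10.3. Mybpc1, the slow-type binding protein C, and Mb, the oxygen store myoglobin, had the same 2 libraries at the top, with 572 and 669 for Mybpc1 and 281 and 390 for Mb.

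**Figure D3:**
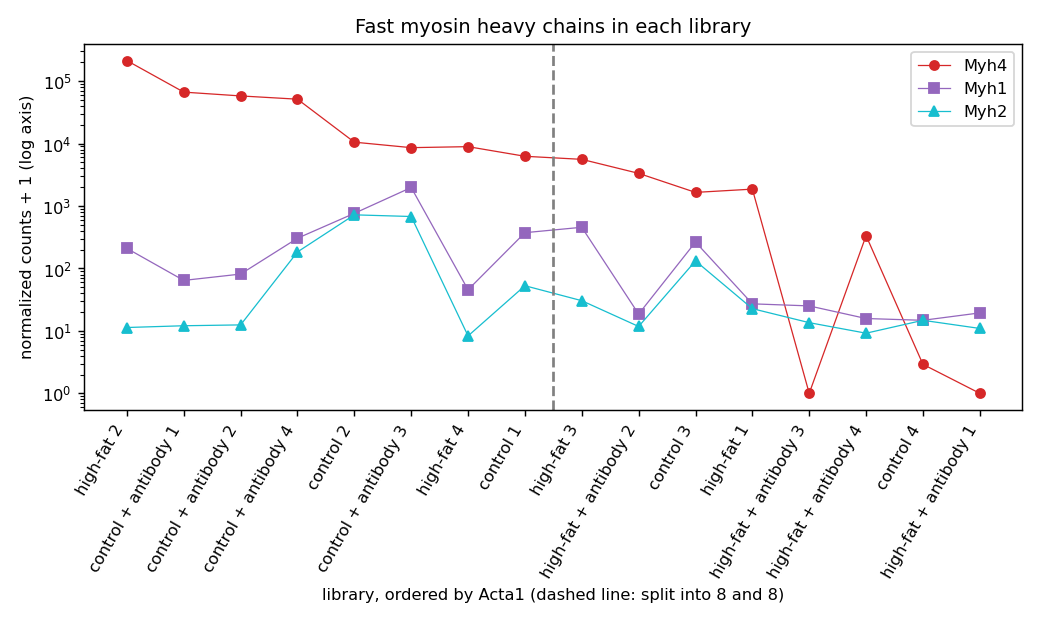
Normalized counts plus 1 (log axis) of the fast myosin heavy chain genes Myh4, Myh1 and Myh2 in each library, ordered by Acta1, with the split into 8 and 8 as a dashed line. Myh4 falls with Acta1 from 213674 to 0, while Myh1 and Myh2 peak in libraries in the middle of the order.

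As a share of these 3 heavy chains' summed counts, Myh4 made up 99.9% in untreated high-fat replicate 2 and 76.4% in antibody control-diet replicate 3, where Myh1 had 17.6% and Myh2 6.02%. In untreated control-diet replicate 3 the shares were 80.7%, 12.9% and 6.41%. The mix of heavy chains thus differed between libraries, and transcript length cancels in that comparison. Over the 8 high libraries, the ratio of a gene's value to that of Acta1 varied 1.42-fold for Casq1, 1.59-fold for Atp2a1, 1.6-fold for Ckm, 1.66-fold for Myh4 and 1.79-fold for Ttn. It varied 166-fold for Myh1 and 1018-fold for Myh2. Myh2 was 10.3, 11.1 and 11.5 in untreated high-fat replicate 2 and antibody control-diet replicates 1 and 2, which had the most Acta1. The Ckm-free libraries held 9.95 to 13.8 of Myh2, so its lowest ratios divide a low value by a large Acta1. The 1018-fold range is thus no measure of fibre mix. Myh2 itself lay between 7.31 and 722 in the high class.

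By diet, with antibody as covariate, some of these oxidative genes were lower on high-fat diet. Myh2 lay between 11.1 and 722 in the 8 control-diet libraries and between 7.31 and 29.5 in the 8 high-fat libraries, with a difference of -2.55 ± 0.84 (limma, adjusted p = 0.0435). Mb differed by -2.94 ± 0.87 (limma, adjusted p = 0.0292). Myl3, the light chain of slow fibres and heart, differed by -3.17 ± 0.49 (limma, adjusted p = 0.00275), but its highest value, 44.6, was in the Ckm-free untreated control-diet replicate 4. Myl3 and Mb share exon sequence with Pth1r and Apol6 on the opposite strand. Myh4 and Ckm differed by -3.07 ± 2.59 and -2.99 ± 2.36 on the same contrast and did not pass (limma, adjusted p = 0.403 and 0.371). Whether the diet difference of Myh2 was larger or smaller than that of Myh4 was not tested.

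Genes of the Z-disc and titin system were higher in 16 of 19 cases (median 4.36). Actn3, the fast-fibre alpha-actinin, differed by 6.50 ± 1.40, Myoz1, the fast myozenin, by 5.61 ± 1.12, and Tcap, the cap of titin, by 5.65 ± 1.17. Actn2, the alpha-actinin of all fibre types, differed by 4.14 ± 0.83, with its highest values of 196 and 186 again in antibody control-diet replicate 3 and untreated control-diet replicate 2. Des, the intermediate filament desmin, which other cells of the fat pad express as well, was at 483 or more in every library and did not pass between the classes (median 1775 against 629), but it passed per doubling of Acta1 (0.34 ± 0.05) and within the 4 groups. Fhl1 lay between 5068 and 6810 against 4314 and 7096 and did not pass (0.08 ± 0.11).

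Calcium release and excitation had 15 of 17 higher (median 4.32). Ryr1, the release channel, differed by 4.81 ± 0.84, its voltage sensor Cacna1s by 5.11 ± 1.01, and the store protein gene Casq1 by 4.62 ± 0.83. Ryr1 lay between 516 and 14839 in the high class and between 19.7 and 421 in the low class, without overlap. Scn4a, the sodium channel of the muscle membrane, differed by 5.23 ± 0.89 and Pvalb, the calcium buffer parvalbumin of fast fibres, by 6.93 ± 1.57. Atp2a2, the pump of slow fibres and of most other cells, lay between 4971 and 7015 in all libraries (-0.15 ± 0.06).

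Energy genes divided as well. Glycogen phosphorylase Pygm (4.64 ± 0.81), the mutase Pgam2 (5.58 ± 1.09), AMP deaminase Ampd1 (5.78 ± 1.28), enolase Eno3 (median 2690 against 368), mitochondrial creatine kinase Ckmt2 (5.17 ± 1.11) and the muscle cytochrome oxidase subunit Cox6a2 (4.42 ± 0.78) were higher, 6 of 18 in all. Gys1, the glycogen synthase of muscle and fat, lay between 4424 and 7287 in the high class and between 4344 and 8224 in the low class. Cox7a1 and Cox8b, subunits shared by muscle and brown fat, differed by -1.17 ± 0.55 and -1.10 ± 0.41 and did not pass. Their r with Acta1 over 16 libraries, on log2 values, was -0.06 and -0.14, and with Ucp1, the uncoupling protein of thermogenic fat, 0.90 and 0.96.

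Membrane and costamere genes were higher in 8 of 12 cases, among them the sarcoglycan Sgca (3.25 ± 0.78) and the muscle caveolin Cav3 (2.81 ± 0.69). Dmd and Dysf, which are also expressed outside muscle, lay between 305 and 675 and between 860 and 1620 and did not pass between the classes. Per doubling of Acta1, Dmd passed (0.07 ± 0.02) and Dysf did not. Of 3 tested genes of the neuromuscular junction (Chrnb1, Dok7 and Ache) 0 were higher, although Ache, which ends transmission at the synapse, passed per doubling of Acta1. Of 3 tested genes of satellite cells and myogenesis, Myf6, the regulator of mature fibres, was higher, at 9.13 to 186 against 0 to 14.6 (4.52 ± 0.79), and Mef2c passed per doubling only. The satellite cell genes Pax7, Myf5 and Myod1 were not analysed here. Mstn, the growth inhibitor myostatin (3.77 ± 0.89), and Trim63, a ubiquitin ligase of atrophy (4.81 ± 1.03), were the 2 higher of 6 secreted and atrophy genes. In untreated control-diet replicate 1 Mstn stood at 162, second only to 270 in untreated high-fat replicate 2, although 7 libraries had more Acta1.

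Fast-fibre genes as a list were higher in 10 of 12 cases (median 5.93), and 8 of the 12 were under the filter value in the Ckm-free libraries. Of 11 slow-fibre genes listed, 5 had a row and 2 were tested, of which 0 were higher (median -0.65). With 2 tested, the slow list cannot be set against the fast list. Among the other actins Actc1, the heart actin, lay between 11.5 and 215 against 4.44 and 37.2 (2.52 ± 0.76, not past the threshold of the split). Per doubling of Acta1 it passed, and its r with Acta1 was 0.86. Acta2 lay between 1325 and 3173 against 858 and 3403 (0.54 ± 0.20), Actg2 differed by -0.35 ± 0.26, Actg1 by 0.30 ± 0.14 and Actb by 0.36 ± 0.13, and none of these 4 passed.

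Outside the muscle lists, the 10 genes nearest to Acta1 by Pearson r on log2 values over the 16 libraries were Fbxo40, Myo18b, Rbfox1, Tmem233, 1110002E22Rik, Myadml2, Kcnj12, Ky, Dhrs7c and Nctc1, with r from 0.970 to 0.987. Fbxo40, a muscle F-box protein, lay between 64.2 and 1366 in the high class and between 3.38 and 56.7 in the low class. Per doubling of Acta1 it rose by 0.87 ± 0.04 log2 units, Myo18b by 1.07 ± 0.06, and Ky, a Z-disc protein, by 1.01 ± 0.05. The RNA-binding protein gene Rbfox1 was at 510 in untreated high-fat replicate 2 and at 0 to 1.91 in the Ckm-free libraries. These libraries share the very Acta1 values used for ranking, so r is a description.

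In all, 166 of the 230 higher genes were in no muscle list. Of those, 63 were under the filter value in the Ckm-free libraries, against 203 of all 14088 genes tested outside the muscle lists. The Ckm-free libraries are all in the low class, so low values there go with the choice of genes. Those of the largest difference among abundant genes included Mylk4, a myosin kinase (6.28 ± 1.46), Eef1a2, the elongation factor of muscle and neurons (5.89 ± 1.15), Cmya5 (3.52 ± 0.64), the kinase Camk2a (2.49 ± 0.53) and Smyd1, a methyltransferase of muscle (median 434 against 115). Eef1a2 was at 114 to 2950 in the high class and at 0 to 86.1 in the low class. Cmya5 and Smyd1 kept 65.2 to 106 and 94.8 to 106 in the Ckm-free libraries, and Camk2a 54.8 to 57.7.

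Another set was present in every library and moved less. Pkia, an inhibitor of protein kinase A (1.35 ± 0.27), Flnc, muscle filamin (1.26 ± 0.23), Fhl3 (1.20 ± 0.25), the aspartate carrier gene Slc25a12 (1.05 ± 0.20), Rtn2 (1.04 ± 0.24), Cd24a (0.92 ± 0.22) and the calcium channel subunit gene Cacna2d1 (0.85 ± 0.19) had r with Acta1 of 0.76 to 0.86. Flnc lay between 684 and 2381 in the high class and between 333 and 1004 in the low class, and the 3 Ckm-free libraries held 395 to 630.

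A further set of higher genes did not closely track Acta1 itself. Of the 230, 70 had an r with Acta1 under 0.7, and only 14 of these 70 were called per doubling and 0 within the 4 groups. Of these 70, 41.4% had an r with Ucp1 under -0.7, against 7.37% of all genes tested. That r takes no account of diet. Ucp1 had a difference of the opposite sign in the fit that picked these genes, so all genes tested are no neutral background. Prx and Drp2, which act in the myelin of Schwann cells, differed by 0.84 ± 0.20 and 0.98 ± 0.22. Both were highest not in the muscle-richest library but in untreated high-fat replicate 4, at 1243 and 829. Nr4a1, an immediate early receptor gene (1.51 ± 0.37), was also highest there, at 1085 against 405 in untreated high-fat replicate 2. Cd9, a tetraspanin of many cells, differed by 0.40 ± 0.09 with r = 0.16 to Acta1 and r = -0.78 to Ucp1.

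**Figure D4:**
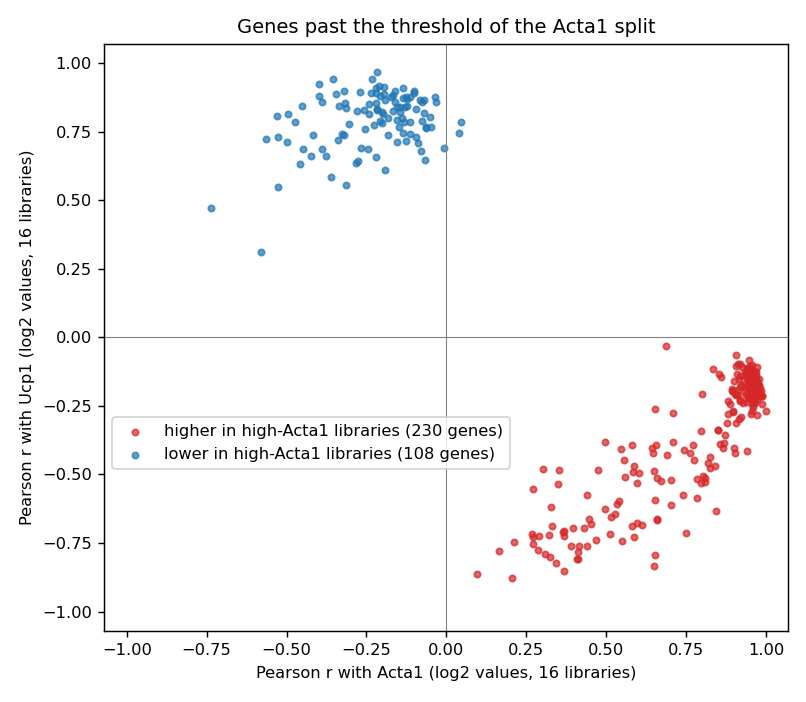
Each point is 1 of the 338 genes past the threshold of the Acta1 split, at its Pearson r with Acta1 (horizontal) and with Ucp1 (vertical) on log2 values over 16 libraries. The 230 higher genes crowd at an r with Acta1 near 0.9 and trail off toward negative r with Ucp1, and the 108 lower genes sit at a median r of 0.81 with Ucp1 and of -0.20 with Acta1.

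Genes lower in the high class, with diet as covariate, differed by less. Their median difference was 0.388 log2 units in size, against 2.49 for the 230 higher genes, and 4 of 108 differed by 2-fold or more. Of the 108, 0 were under the filter value in the Ckm-free libraries, against 257 of all 14189 genes tested. Those libraries are all in the low class, for which these genes were picked as higher, so that 0 is no result about them. Their r with Acta1 reached no lower than -0.74, and 69 of the 108 were also called by diet, as were 19.8% of all genes tested. An r with Ucp1 above 0.7 was found in 82.4%, against 10.6% of all genes tested. Ucp1 had a difference of the same sign in the fit that picked these genes, so all genes tested are no neutral background. These r values also take no account of diet, while the calls do. Ucp1 itself differed by -4.22 ± 1.28 and did not pass. In the untreated groups, where both classes occur, it was 4843 and 207 in the high and 44771 and 14599 in the low libraries on control diet, and 14.8 and 30.2 in the high and 159 and 6053 in the low libraries on high-fat diet. In each of these groups both high libraries had less Ucp1 than both low libraries, with only 2 libraries on each side. The share of all genes that separate in this way was not counted, so no conclusion is drawn from it. The parts of Acta1 and of Ucp1 in the differences of the 108 genes were not tested. Among the antibody libraries Ucp1 was 1810 to 25010 in the high class (all control diet) and 47.9 to 6111 in the low class (all high-fat diet).

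Dio2, which activates thyroid hormone in thermogenic fat, lay between 10.2 and 171 in the high class and between 15.6 and 375 in the low class (-2.11 ± 0.49). Hephl1, a copper oxidase (-1.65 ± 0.30), Gys2, a glycogen synthase (-1.09 ± 0.27), and Clstn3 (-0.91 ± 0.22) were also lower. In each the classes overlapped, and the highest values were in untreated control-diet replicates 3 and 4 or antibody control-diet replicate 1. Lipid genes were Agpat2, which makes phosphatidic acid (-0.90 ± 0.22), malic enzyme Me1 (-0.78 ± 0.20), the droplet coat gene Plin2 (-0.71 ± 0.17), the fatty acid binding protein gene Fabp5 (-0.67 ± 0.15) and Hsd17b12 of chain elongation (-0.63 ± 0.15). Mitochondrial genes were Mpc2, of the pyruvate carrier (-0.62 ± 0.16), Letm1 (-0.59 ± 0.14), Rmdn3 (-0.60 ± 0.15) and Acads, a short-chain acyl-CoA dehydrogenase (-0.52 ± 0.11). Parm1 (-0.90 ± 0.18), Paqr9 (-0.89 ± 0.22) and Echdc1 (-0.71 ± 0.17) were also lower. Without diet as covariate, Parm1, Me1 and Mpc2 changed sign, to 0.07, 0.25 and 0.03. Of the 108 lower genes 0 were then called, and 100 kept their sign. Plain medians were higher in the high class for Hephl1 (277 against 191), Me1 (22416 against 12771) and Mpc2 (4503 against 3288). They were also higher for Gys2, Parm1, Agpat2, Plin2, Echdc1, Hsd17b12 and Letm1, and lower for Clstn3, Paqr9, Fabp5 and Rmdn3. Agpat2, Echdc1 and Rmdn3 share exon sequence with genes on the opposite strand.

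**Figure D5:**
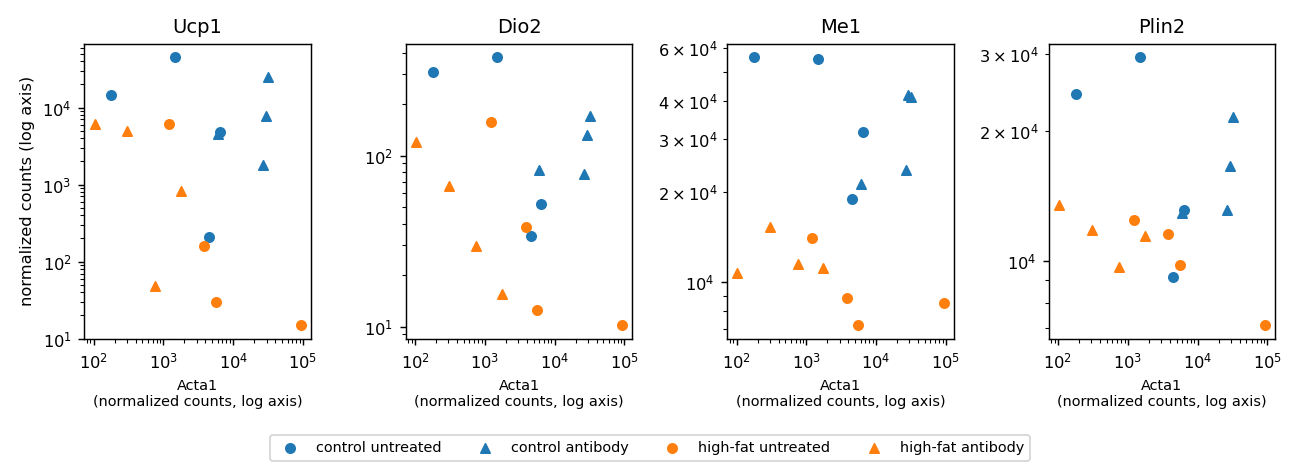
Normalized counts of Ucp1, Dio2, Me1 and Plin2 (vertical, log axis) against Acta1 (horizontal, log axis) in the 16 libraries, coloured by diet, with circles for untreated and triangles for antibody. Within the untreated libraries of each diet, the 2 high-Acta1 libraries lie below the 2 low-Acta1 libraries in all 4 genes, while over all 16 libraries Me1 and Acta1 have r = 0.05. Dio2, Me1 and Plin2 were named for being lower in a fit that includes these libraries, so their order here is no separate support.

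In lists of fat and other cells the counts were small, as is the background of 1.62% higher and 0.761% lower over all genes tested, so a count of 0 or 1 is no result about a list. Among thermogenic genes 1 of 17 was higher (Ckmt2) and 2 lower (Dio2, Letm1), with a median of -1.17. Fatty acid synthesis had 1 of 14 lower (Me1, median -0.66), fatty acid oxidation 1 of 18 lower (Acads, median -0.56), and the respiratory chain 0 of 21 (median -0.43). All 21 respiratory chain differences were negative, while 7015 of all 14189 genes tested had a positive one. Other lists leaned the other way: 16 of 16 macrophage, 13 of 13 immediate early and 17 of 18 matrix differences were positive. By diet, all 21 respiratory chain and 13 of 14 fatty acid synthesis genes were called, against 19.8% of all genes tested. Their median r with Acta1, without diet, was -0.08 and 0.04. Mature adipocyte genes had 0 of 22 (median -0.16). Schwann cell genes had 1 of 12 higher (Prx, median 0.47), macrophage genes 1 of 16 (Cd9, median 0.36) and immediate early genes 1 of 13 (Nr4a1, median 0.54).

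No member passed among 13 smooth muscle and mural genes (median 0.15), 3 heart genes (0.19), 3 tendon genes (0.39), 6 small heat shock genes (0.47), 14 adipose progenitor genes (0.31), 18 matrix genes (0.23), 12 endothelial genes (0.04), 7 lymphocyte genes (-0.09), 7 blood genes (-0.30), 4 epithelial genes (0.05), 15 clock genes (-0.06) and 15 proliferation genes (0.05). These are limma fits, in which 3234 of all 14189 genes had an unadjusted p under 0.05. Vessel and smooth muscle markers overlapped between the classes, with Pecam1 at 3134 to 4506 against 3380 to 5238 and Myh11 at 798 to 1233 against 726 to 1636.

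Adding the Acta1 term to the design's own fits changed their counts. By diet, with antibody as covariate, 2805 genes (19.8%) passed, 3607 with log2 Acta1 added and 4813 with the class added. By antibody, with diet as covariate, 346 genes (2.44%) passed, 381 with log2 Acta1 added and 473 with the class added. Antibody contrasts within a diet called 14 genes on control diet (0.0987%) and 11 on high-fat diet (0.0775%).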

How the data were processed

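The submitters' processing notes name Subread 1.6.2, featureCounts, limma 3.42.2, fastp 0.20.1 and STAR 2.7.0e, with the builds mm10 and GRCm38, and give no role for each. The authors deposited a linear signal, called normalized counts, for 16091 genes in 16 libraries. The sources used here do not say how it was normalized or whether reads were counted by strand. Values were not whole and reads could not be recovered, so the depth is unknown and no count model was run.

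Genes above 24.5 normalized counts (1 millionth of the median total) in at least 4 libraries were tested (14189; 1902 were left out). Values were taken as log2(value + 1). limma 3.58.1 in R 4.3.3 fitted the Acta1 class with diet as covariate, with a variance trend and Benjamini-Hochberg adjustment at 0.05, and likewise diet and antibody. The fit was tested on simulated data. In GENCODE vM21, 16081 identifiers were found. Of 128 genes looked up, 13 share exon sequence with a gene on the opposite strand.

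The members and gene lists were chosen with earlier results of these data known. Named were the markers, genes from among the list members past the threshold and the first 4 listed, the 10 genes nearest Acta1, the 15 largest differences each way among abundant genes outside the muscle lists, and the actins; other genes were chosen after their values were seen. Some genes that this rule takes are not reported here. Alternatives were covariates, pseudocounts, filters, scalings, subsets and leaving out each library.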

Additional observations from a re-analysis of the deposited data

Results flagged for a closer look

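In groups of 4, the gap of the highest or lowest library to the next, divided by the group's range, was compared with Dixon's 95% critical value for Acta1, Atp2a1, Ttn and the share of the 54 muscle list genes. Of 16 such groups 7 were past it. Chance passes about 1 in 20 groups of normally distributed values, a rate that need not hold for these linear values over a wide range. The 4 measures are not independent, Acta1 made the ranking, and the 54 genes were taken for their low values in the 3 Ckm-free libraries, 2 of which are antibody high-fat replicates 1 and 3. Untreated high-fat replicate 2 stood apart in all 4 measures: Acta1 was 92644 (next 5581), Atp2a1 81383 (next 3679), Ttn 32009 (next 1255) and the muscle share 2.47% (next 0.107%). Antibody high-fat replicate 2 stood apart from its group in 3 measures: Atp2a1 was 1087 (next 117), Ttn 514.7 (next 49.0) and the muscle share 0.0377% (next 0.00452%).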

How the results depend on the processing

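The Acta1 split called 338 genes, 230 higher and 108 lower. Pseudocounts of 10 and 0.1, no filter, and quantile or trimmed mean scaling kept each of these counts within 1.5 times. Splits by Atp2a1 or Ttn make the same classes and so the same fit. Without a variance trend 67 were lower. With the 4 groups as covariates 1 passed (0 higher, 1 lower), and with no covariate 147 (146 higher, 1 lower). In the control-diet, high-fat-diet or untreated libraries alone 0 passed (0 higher, 0 lower; limma, 3392, 1214 and 2026 at an unadjusted p under 0.05). Without the 2 libraries with the highest Acta1 1 passed (1 higher, 0 lower), without ranks 8 and 9 998 (522 higher, 476 lower), and without the 2 doubted libraries, an alternative added after seeing the data, 0 (0 higher, 0 lower; 1344 at an unadjusted p under 0.05). Per doubling of Acta1 7 were lower, and within the 4 groups (added after seeing the data) 171 passed, 6 of them lower. The causes were not tested. A fit to the antibody libraries alone was not run, since class and diet are the same there.

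Leaving out each library in turn gave 0 to 832 genes (0 to 449 higher, 0 to 389 lower). The total moved by over 1.5 times without untreated control-diet replicates 3 (138) and 4 (0), antibody control-diet replicates 1 (604), 3 (221) and 4 (184), untreated high-fat replicates 1 (212), 2 (1), 3 (832) and 4 (531), and antibody high-fat replicates 1 (183), 3 (691) and 4 (178). Per doubling of Acta1 the counts, chosen after seeing the data, ran from 173 to 275 higher and from 1 to 23 lower, and without the 2 doubted libraries they were 166 and 0. The diet count of 2805 ran from 1667 to 4245 and was 4813 with the class added. The antibody count of 346 ran from 158 to 443.

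With the replicate block the split called 0 genes (0 higher, 0 lower; 3076 at an unadjusted p under 0.05), diet 1700 and antibody 157. Deviations of same-numbered libraries correlated at -0.54 to 0.49 (median 0.03 over 24 pairs). Over 72 pairs of different numbers the median was -0.02 and the highest value 0.54. Libraries numbered 2 had positive values in every pair of groups, from 0.13 to 0.49, while each other number had values of both signs. Since different numbers reached as high, these values do not settle whether the numbers pair the libraries.

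Over 125 genes and all alternatives there were 4375 differences. A change of sign was counted only for genes past the threshold of the main split. There were 3, all with no covariate: Parm1 to 0.0709, Me1 to 0.246 and Mpc2 to 0.0271. Sign changes of the other genes were not counted. The read depth is unknown, so what it limits could not be given.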
